A study of Homo sapiens with 21 samples.

Results

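The genes described here are 7 transporters of the ATP-binding cassette (ABC) superfamily known for drug efflux, namely ABCB1, ABCG2 and the multidrug resistance-associated proteins ABCC1, ABCC2, ABCC3, ABCC4 and ABCC5. They were picked by name, and all 7 are among the 42339 genes of the count table, where each row was matched by its Ensembl identifier. In the 4 comparisons of the study, 5 of the 7 passed the filter on low counts and were tested, and ABCB1 and ABCG2 did not pass it.

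ABC transporters couple the binding and hydrolysis of ATP to the movement of substrates across a membrane, and the exporters described here sit mainly in the plasma membrane. ABCB1 (P-glycoprotein) and ABCG2 (breast cancer resistance protein) pump unmodified hydrophobic drugs and dyes, and ABCG2 marks the side population that is often used to enrich stem-like cells. The ABCC proteins carry mainly organic anions, including glutathione and glucuronide conjugates. They depend on the enzymes that make those conjugates, on the carriers that bring drugs into the cell, and on anchoring proteins under the membrane.

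BT-549 is an established cell line of triple-negative breast cancer (TNBC) and is BRCA1 wild-type. RNA-seq libraries from 21 cultures fell into 7 groups of 3, and the transcripts were compared across growth format, MUC1 silencing, MYC silencing and drug treatment. The 2D cells grew as monolayers with serum and insulin, and the 3D cells were mammospheres of serial passage 6 in ultra-low attachment plates with a mammosphere medium, so format, medium and passage cannot be told apart. Neither of these carried an shRNA, and both were labelled as controls with no vehicle named. A further group was 3D cells of passage 6 with 0.75 μM GO-203, a cell-penetrating peptide that targets the cytoplasmic domain of MUC1-C, for a time that is not given in the sources used here. The tet-MUC1shRNA groups were mammospheres of passage 6 with 1 doxycycline-inducible shRNA against MUC1 and received 0.1% DMSO as vehicle or 500 ng/ml doxycycline (DOX). The tet-MYCshRNA groups were mammospheres of passage 8 with 1 inducible shRNA against MYC and received the same vehicle or the same dose of DOX. No DOX-treated line with a control shRNA was analysed here, so the action of DOX itself and that of silencing cannot be told apart. Each p-value below measures the spread among 3 cultures of 1 line in each group.

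Library totals ran from 38026597 to 99751717 counts. The label names breast epithelium, but the epithelial markers EPCAM, KRT8, KRT18, KRT19 and CDH1 reached at most 1.51 CPM (counts scaled to a common library size) in any library, whereas VIM was at 1076 to 2486 CPM and ZEB1 at 88.0 to 339 CPM. ESR1 and PGR reached at most 1.48 CPM, and ERBB2 was at 18.4 to 42.0 CPM. Of the markers of other cell types, CD3E, CD14, VWF and ALB reached at most 0.635 CPM and PTPRC at most 1.49 CPM, while PECAM1 was at 0.0114 CPM on average in 2D cells and at 2.99 to 9.37 on average in the other groups. The targeted genes followed their labels. MUC1 was at 83.2 to 101 CPM with vehicle and 19.7 to 23.3 with DOX in the tet-MUC1shRNA line (log2 fold change -2.06). MYC was at 386 to 439 CPM with vehicle and 244 to 297 with DOX in the tet-MYCshRNA line, a smaller change (log2 fold change -0.62). MUC1 rose by 1.25 on the log2 scale on MYC silencing, and MYC rose by 0.25 on MUC1 silencing. In 3D vs. 2D cells MUC1 rose by 1.93 and MYC by 2.76. Mean MYC was 85.4 CPM in 2D cells, 581 in 3D cells and 564 with GO-203. It was 245 with vehicle and 286 with DOX in the tet-MUC1shRNA line, beside 274 with DOX in the tet-MYCshRNA line. Whether the transporters follow the MYC level across groups was not tested.

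In GENCODE release 44 on GRCh38, ABCC1 (ENSG00000103222.20) lies on chromosome 16 from 15949138 to 16143257 and ABCC4 (ENSG00000125257.16) on chromosome 13 from 95019835 to 95301475. ABCC5 (ENSG00000114770.17) lies on chromosome 3 from 183919934 to 184017939, ABCC2 (ENSG00000023839.12) on chromosome 10 from 99782640 to 99852594 and ABCC3 (ENSG00000108846.16) on chromosome 17 from 50634777 to 50692253. ABCB1 (ENSG00000085563.15) lies on chromosome 7 from 87503017 to 87713323 and ABCG2 (ENSG00000118777.12) on chromosome 4 from 88090150 to 88231628. No exon base of the 7 is shared with another gene on either strand in this annotation.

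The promoters of 3 transporters are shown as those of the tested genes that the table holds. All are from the RefSeq table of promoters (GRCh38.p14), which has an entry for 5 of the 7 genes, not including ABCC1 and ABCC3. Each line runs 5′ to 3′ on the gene's strand through the 250 bases before the RefSeq start, without the bases that GENCODE places inside the gene. Capitals mark matches to an E-box (CACGTG), an antioxidant response element (TGACNNNGC), the core of the xenobiotic response element (GCGTG), a GC box (GGGCGG) or a TATA box (TATAAA), searched on both strands.
ABCC4, chr13:95301476-95301701, minus strand: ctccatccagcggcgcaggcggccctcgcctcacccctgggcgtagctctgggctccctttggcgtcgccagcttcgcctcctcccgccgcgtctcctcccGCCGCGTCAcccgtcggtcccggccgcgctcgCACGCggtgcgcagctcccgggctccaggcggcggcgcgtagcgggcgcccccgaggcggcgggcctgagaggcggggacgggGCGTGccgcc
ABCC5, chr3:184017940-184018134, minus strand: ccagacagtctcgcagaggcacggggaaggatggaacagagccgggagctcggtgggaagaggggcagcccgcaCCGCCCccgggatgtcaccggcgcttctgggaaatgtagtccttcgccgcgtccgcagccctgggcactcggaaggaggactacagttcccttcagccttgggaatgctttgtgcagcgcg
ABCC2, chr10:99782390-99782639, plus strand: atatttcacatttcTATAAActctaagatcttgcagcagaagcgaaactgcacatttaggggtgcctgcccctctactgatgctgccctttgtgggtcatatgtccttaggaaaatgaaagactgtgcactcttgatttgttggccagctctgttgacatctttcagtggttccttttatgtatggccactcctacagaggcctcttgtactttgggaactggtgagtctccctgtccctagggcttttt
Over the full 250 bases the ABCC4 window had 80.4% G and C, the ABCC5 window 64.8% and the ABCC2 window 45.6%, beside a median of 58.0% over 35116 promoters. The ABCC4 window held 1 reverse match to the antioxidant element, 149 bases before the start, and 2 matches to the xenobiotic core. The ABCC5 window held a reverse GC box 176 bases before the start, and a TATA box 28 bases before it, in the stretch left off. The ABCC2 window held a TATA box 236 bases before the start. None of the 3 windows held CACGTG, the E-box that MYC with MAX is known to bind. Of the 5 windows of ABCG2, which is not shown since its transcript was near 0, those numbered 2 and 4 in the table overlap and held the same single CACGTG, 171 and 121 bases before their starts, and the 2 windows of ABCB1 held none. Of all promoters, 6.345% held the E-box, 10.907% the antioxidant element, 32.216% the xenobiotic core, 42.639% the GC box and 10.716% the TATA box. These matches are descriptions of letters only, and in the 3 windows shown no match overlapped another.

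ABCC4, which exports cyclic nucleotides, nucleotide analogues and prostaglandins, had the highest level per kb of annotated exon among the 7 genes in all 7 groups. It stood at 16.8 CPM per kb in 2D cells, 16.4 in 3D cells and 17.8 in vehicle-treated tet-MYCshRNA mammospheres, and at 5.75 in the DOX-treated mammospheres of that line. ABCC1, the founding member of the ABCC exporters of glutathione conjugates, came next in 5 of the groups, with 4.77 to 6.24 CPM per kb. In the DOX-treated tet-MUC1shRNA mammospheres ABCC3 was next, with 6.54 CPM per kb, just above ABCC5 with 6.37. In the DOX-treated tet-MYCshRNA mammospheres ABCC5 was next, with 3.93, and ABCC3 followed with 3.61. The order of ABCC3 and ABCC5 in the first of these, and of ABCC1 and ABCC5 in the vehicle-treated tet-MUC1shRNA mammospheres, turned with the length of the canonical transcript in place of all exons.

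The make-up of the transporter transcripts was different in the DOX-treated groups of both lines. ABCC4 took 60.4% ± 2.47 (SD, n = 3) of the level per kb summed over the 7 genes in 2D cells, 58.5% ± 1.72 in 3D cells and 60.9% ± 1.32 with GO-203. In tet-MUC1shRNA mammospheres its share was 48.6% ± 0.902 with vehicle and 34.8% ± 0.862 with DOX, and in tet-MYCshRNA mammospheres it was 60.6% ± 0.839 and 34.4% ± 3.32. The share of ABCC4 was thus lowest in the DOX-treated groups, where it was 32.3% and 31.5% with the length of the canonical transcript. ABCC3 took 1.4% ± 0.239 in 2D cells and 5.51% ± 0.242 in 3D cells, and it took 20.8% ± 0.76 and 21.6% ± 2.5 in the DOX-treated tet-MUC1shRNA and tet-MYCshRNA mammospheres. The summed level itself was 25.5 ± 0.555 CPM per kb with vehicle and 31.5 ± 0.128 with DOX in the tet-MUC1shRNA line. In the tet-MYCshRNA line it was 29.3 ± 0.73 with vehicle and 16.7 ± 0.294 with DOX. The DOX-treated groups therefore had a similar share of ABCC3 at summed levels on either side of those of the other groups, which ran from 25.5 to 29.3 CPM per kb.

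**Figure D1:**
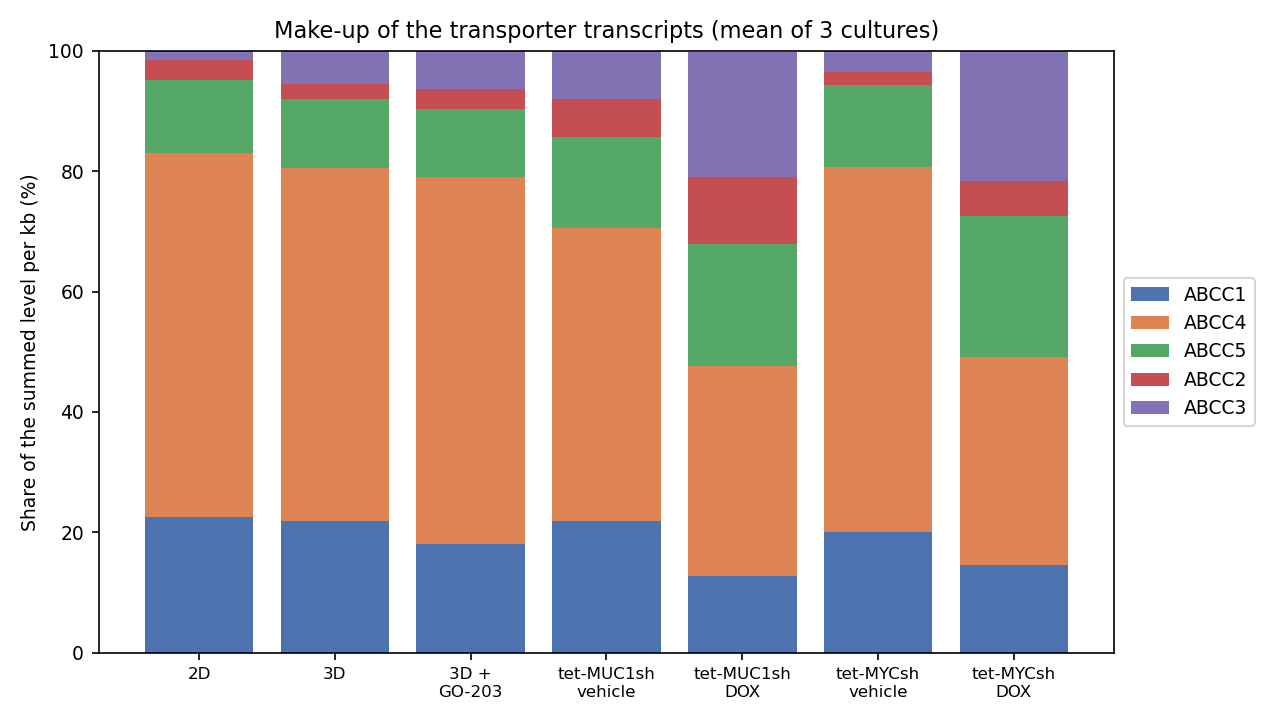
Share of each transporter in the level per kb summed over the 7 genes (vertical axis, %), as the mean of 3 cultures in each of 7 groups (horizontal axis). ABCB1 and ABCG2 are too low to be visible, and ABCC4 falls from about 60.6% to 34.4% of the bar between the vehicle- and DOX-treated tet-MYCshRNA groups.

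ABCB1 and ABCG2, the classic drug pumps, were close to 0 in all 21 libraries. ABCB1 had 30 counts over all libraries together, was at 0 in 13 of them, and had at most 6 counts in one library (0.121 CPM). The GO-203 libraries among these 13 had no value for ABCB1 and were read as 0. Its counts were 10 in the DOX-treated and 0 in the vehicle-treated tet-MUC1shRNA group, and 10 and 8 in the tet-MYCshRNA groups. For scale, 3 counts, the limit that a count of 0 allows, correspond to 0.0789 CPM in the smallest and 0.0301 CPM in the largest library, for counting error only. All 26 values of ABCB1 and ABCG2 above 0 are even, and if a read pair adds 2 counts this limit is 6 counts, or 0.158 and 0.0601 CPM. ABCG2 had 98 counts over all libraries and was at 0 in 3 of them, with at most 16 counts in one library (0.363 CPM). Its group totals were 16 counts in 2D cells, 8 in 3D cells and 2 with GO-203. In the tet-MUC1shRNA line ABCG2 had 10 counts with vehicle and 32 with DOX, and in the tet-MYCshRNA line 22 and 8. Neither gene passed the filter of the main test. With a filter of 1 count, edgeR gave adjusted p between 0.116 and 0.684 where a gene had any count, the lowest for ABCB1 on MUC1 silencing, and DESeq2 gave no adjusted p below 0.155.

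The levels of the other 5 genes are shown in the plot of levels by culture. ABCC1 and ABCC4 were lowest in the DOX-treated tet-MYCshRNA mammospheres, with means of 21.4 and 49.6 CPM, and their highest group means were 54.5 CPM in 2D cells for ABCC1 and 153 CPM in vehicle-treated tet-MYCshRNA mammospheres for ABCC4. ABCC2, ABCC3 and ABCC5 were highest in the DOX-treated tet-MUC1shRNA mammospheres, with means of 27.9, 62.9 and 72.4 CPM, but their lowest groups differed, with 5.03 CPM for ABCC2 in vehicle-treated tet-MYCshRNA mammospheres, 3.7 for ABCC3 in 2D cells and 34.1 for ABCC5 with GO-203. The highest group mean was 17 times the lowest for ABCC3, 5.54 times for ABCC2, 3.09 times for ABCC4, 2.55 times for ABCC1 and 2.12 times for ABCC5. For ABCC3 the only neighbours in the order of group means whose libraries overlapped were 3D cells with and without GO-203. For ABCC4 the libraries of the 4 highest groups each overlapped those of the next, and the DOX-treated groups of both lines stood below all others. For ABCC1 the 3 highest groups, 2D cells, 3D cells and vehicle-treated tet-MYCshRNA mammospheres, overlapped in the same way. ABCC2 overlapped between 2D cells, DOX-treated tet-MYCshRNA mammospheres and GO-203-treated cells, and between 3D cells and vehicle-treated tet-MYCshRNA mammospheres. ABCC5 overlapped among both tet-MYCshRNA groups and the vehicle-treated tet-MUC1shRNA group, and between 2D and 3D cells. In bulk RNA, fewer cells with a transcript and less of it per cell cannot be told apart.

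**Figure D2:**
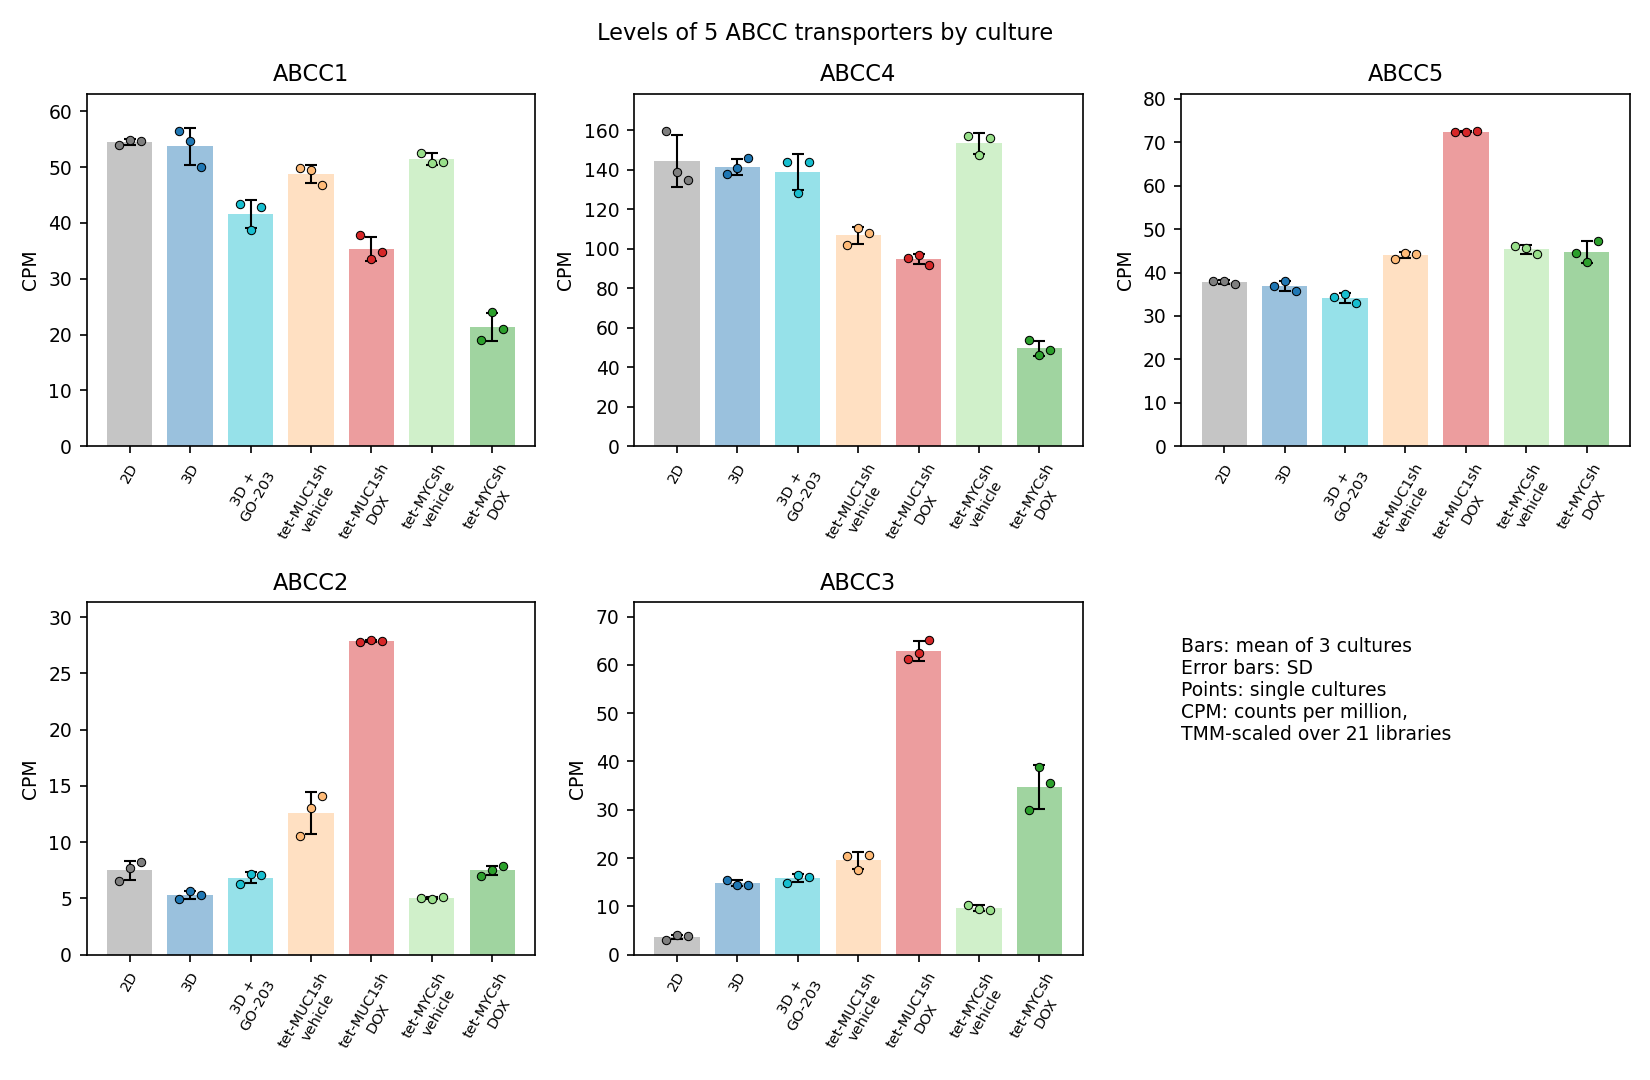
CPM of 5 ABCC transporters (vertical axes, each from 0) in 7 groups (horizontal axes). Bars are means of 3 cultures, error bars SD and points single cultures, and ABCC3 ranges from a mean of 3.7 CPM in 2D cells to 62.9 CPM in the DOX-treated tet-MUC1shRNA group.

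The first comparison asked how the transporters differ between 3D and 2D cells. ABCC3, an exporter of glucuronide and bile acid conjugates usually placed in the basolateral membrane, rose, and ABCC2, its counterpart in the apical membrane of liver cells, fell. ABCC1, ABCC4 and ABCC5 did not pass the test. A gene is said to rise or fall where the adjusted p of edgeR's quasi-likelihood test was below 0.1, the threshold of the study, over all genes tested. By this rule 2 of the 5 tested transporters changed, 1 higher and 1 lower, beside 63.7% of all 19190 genes tested, 32.0% higher and 31.7% lower.

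ABCC3 was at 3.15, 3.999 and 3.95 CPM in 2D cells and at 15.6, 14.5 and 14.5 CPM in 3D cells. Every 3D library was thus well above every 2D library, and the log2 fold change was 1.99 (SE 0.12, edgeR adjusted p = 4.29e-10), a 3.98-fold rise. ABCC2 was at 6.57, 7.67 and 8.26 CPM in 2D cells and at 4.92, 5.66 and 5.29 in 3D cells, again without overlap. These 2 of 5 stand beside 64.2% of all genes tested whose 3D and 2D libraries did not overlap. Its log2 fold change was -0.51 (SE 0.13, edgeR adjusted p = 0.0032), 1.42-fold lower. The study words its second threshold as a log2 fold change above 1.5 and also as a fold above 1.5. ABCC3 was the only one of the 5 that passed it in either form, beside 16.2% of all genes tested on the log2 scale and 39.0% as a fold.

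ABCC1, ABCC4 and ABCC5 each overlapped between 2D and 3D cells. ABCC1 was at 54.5 ± 0.518 CPM (SD, n = 3) in 2D and 53.7 ± 3.28 in 3D cells, and its log2 fold change was -0.03 (95% interval -0.16 to 0.11). ABCC4 was at 144 ± 13.1 CPM and 142 ± 4.09 CPM, with a log2 fold change of -0.03 (95% interval -0.17 to 0.11). ABCC5, which like ABCC4 exports cyclic nucleotides and nucleotide analogues, was at 37.8 ± 0.473 and 36.9 ± 1.18 CPM, with a log2 fold change of -0.04 (95% interval -0.17 to 0.09). The bound furthest from 0 in these intervals was -0.174 on the log2 scale, for ABCC4. The median absolute log2 fold change was 0.04 over the 5 transporters and 0.50 over all genes tested.

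Silencing MUC1 changed all 5 tested transporters, in both directions. ABCC3, ABCC2 and ABCC5 rose and ABCC1 and ABCC4 fell, beside 62.2% of all 19220 genes tested that changed by the same rule, 30.7% higher and 31.6% lower. The libraries of all 5 did not overlap between vehicle and DOX, as was the case for 62.4% of all genes. The 3 rises were each larger than either fall. Only ABCC3 also passed the fold threshold on the log2 scale, beside 8.82% of all genes, and ABCC3, ABCC2 and ABCC5 passed it as a fold, beside 32.2%.

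ABCC3 was at 20.4, 17.5 and 20.6 CPM with vehicle and at 61.1, 62.4 and 65.2 CPM with DOX. The groups were far apart, with a log2 fold change of 1.71 (SE 0.07, edgeR adjusted p = 6.67e-15). ABCC2 was at 10.6, 13.1 and 14.1 CPM with vehicle and at 27.8, 28.0 and 27.9 CPM with DOX. The DOX-treated libraries were nearly equal while those with vehicle spread, and the log2 fold change was 1.16 (SE 0.09, edgeR adjusted p = 2.27e-10). ABCC5 was at 43.2, 44.5 and 44.2 CPM with vehicle and at 72.4, 72.4 and 72.5 CPM with DOX. Its log2 fold change was 0.74 (SE 0.05, edgeR adjusted p = 5.42e-11), and it was the only comparison of the 4 in which ABCC5 passed the test.

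ABCC1 was at 49.9, 49.5 and 46.8 CPM with vehicle and at 37.8, 33.5 and 34.8 CPM with DOX. All DOX-treated libraries were lower, with a log2 fold change of -0.44 (SE 0.06, edgeR adjusted p = 1.9e-06). ABCC4 was at 102, 110 and 108 CPM with vehicle and at 95.3, 96.8 and 91.9 CPM with DOX, a small difference without overlap. Its log2 fold change was -0.15 (SE 0.05, edgeR adjusted p = 0.00887), and with library size alone in place of TMM scaling it was 0.01 (adjusted p = 0.801), so that this call rests on the scaling. That setting raised the median of all genes by 0.166 on the log2 scale and kept the directions and calls of the other 4.

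GO-203 was compared with the same 3D libraries that served in the first comparison, so the 2 comparisons are not independent. ABCC1 fell and ABCC2 rose, and ABCC3, ABCC4 and ABCC5 did not pass the test. These 2 of 5 stand beside 24.1% of all 18488 genes tested, 11.1% higher and 12.9% lower. None of the transporters also passed the fold threshold in either form, which 0.757% of all genes tested did on the log2 scale and 5.63% as a fold.

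ABCC1 was at 56.4, 54.7 and 50.1 CPM in 3D cells and at 43.4, 38.7 and 42.8 CPM with GO-203. Every treated library was lower, with a log2 fold change of -0.34 (SE 0.06, edgeR adjusted p = 0.000477). ABCC2 was at 4.92, 5.66 and 5.29 CPM in 3D cells and at 6.26, 7.21 and 7.08 CPM with GO-203. The treated libraries were higher without overlap, with a log2 fold change of 0.40 (SE 0.13, edgeR adjusted p = 0.0309). This call was lost without 3D replicate 1 (log2 fold change 0.36, adjusted p = 0.115) and without GO-203 replicate 2 (0.35, adjusted p = 0.104), with the direction kept.

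ABCC4 was at 139 ± 9.1 CPM (SD, n = 3) with GO-203, and its log2 fold change was 0.00 (95% interval -0.12 to 0.12). ABCC3 was at 15.8 ± 0.811 CPM with GO-203, with a log2 fold change of 0.12 (95% interval -0.06 to 0.30). ABCC5 was at 34.4, 35.1 and 32.9 CPM with GO-203 and 36.9, 38.1 and 35.7 CPM without. Its libraries did not overlap, as was the case for 33.1% of all genes, but its log2 fold change of -0.08 (95% interval -0.21 to 0.05) did not pass the test.

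On MYC silencing ABCC4 and ABCC1 fell, ABCC3 and ABCC2 rose, and ABCC5 did not pass the test. These 4 of 5 stand beside 58.5% of all 19951 genes tested, 30.3% higher and 28.1% lower. The libraries of the same 4 did not overlap, beside 59.5% of all genes. ABCC4 and ABCC3 also passed the fold threshold on the log2 scale, beside 10.5% of all genes, and ABCC4, ABCC1 and ABCC3 passed it as a fold, beside 37.7%. The falls of ABCC4 and ABCC1 were larger here than in any of the other 3 comparisons.

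ABCC4 was at 157, 147 and 156 CPM with vehicle and at 53.9, 46.2 and 48.7 CPM with DOX. The highest DOX-treated library was far below the lowest with vehicle, and the log2 fold change was -1.65 (SE 0.08, edgeR adjusted p = 6.63e-08), 3.14-fold lower. ABCC1 was at 52.6, 50.7 and 50.9 CPM with vehicle and at 19.1, 24.1 and 20.9 CPM with DOX. It too was apart in every library, with a log2 fold change of -1.28 (SE 0.09, edgeR adjusted p = 1.6e-06), 2.44-fold lower.

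ABCC3 was at 10.4, 9.53 and 9.18 CPM with vehicle and at 29.9, 38.8 and 35.5 CPM with DOX. All DOX-treated libraries were higher, though they spread more than those with vehicle, and the log2 fold change was 1.82 (SE 0.11, edgeR adjusted p = 5.2e-07). ABCC2 was at 5.05, 4.94 and 5.11 CPM with vehicle and at 7.02, 7.54 and 7.9 CPM with DOX, a log2 fold change of 0.55 (SE 0.11, edgeR adjusted p = 0.00203). ABCC5 was at 45.3 ± 0.964 CPM (SD, n = 3) with vehicle and 44.7 ± 2.5 with DOX, and its log2 fold change was -0.04 (95% interval -0.20 to 0.12).

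**Figure D3:**
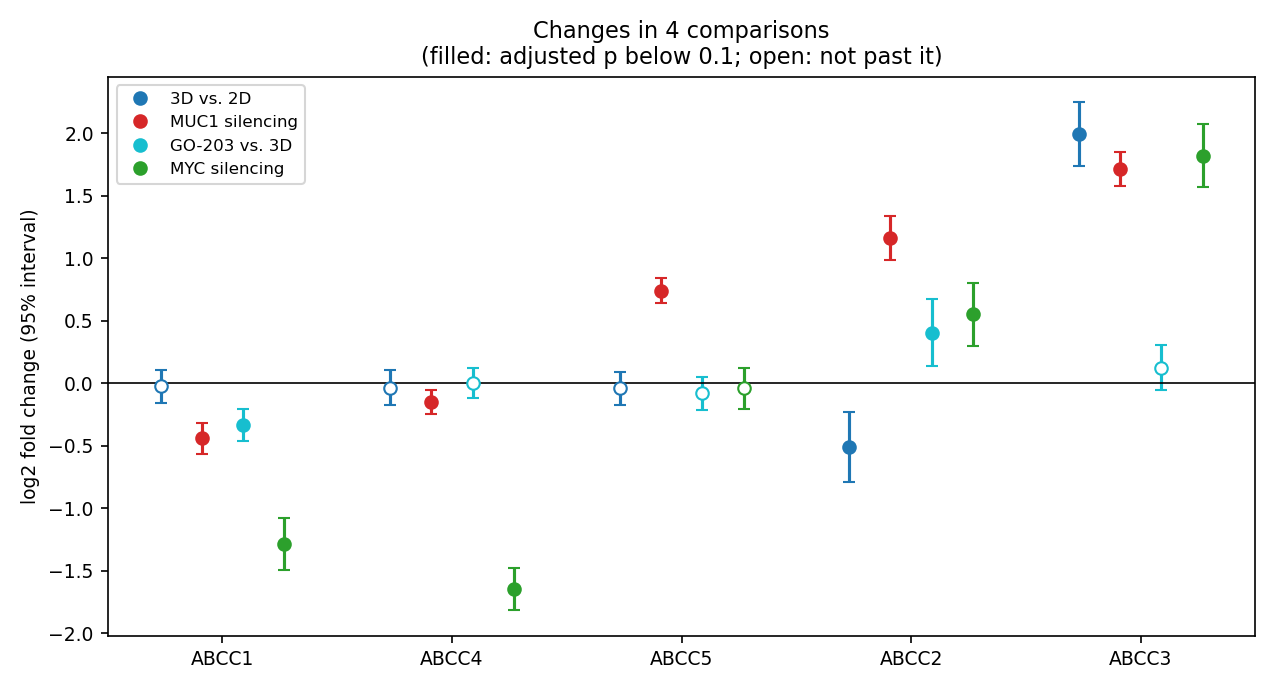
log2 fold changes (vertical axis) of 5 transporters (horizontal axis) in 4 comparisons, with 95% intervals from the quasi-likelihood fit on 3 cultures a group. Filled points passed an adjusted p below 0.1, open points did not. ABCC3 lies near 2 in 3 of the 4 comparisons and at 0.12 with GO-203, and ABCC4 is lowest on MYC silencing at -1.65.

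Whether MUC1 silencing and MYC silencing act differently on the transporters was tested over the 12 libraries of both lines, which also differ in passage and in the shRNA they carry. The effects differed for 4 of the 5 transporters, all of them higher on MUC1 silencing, beside 52.9% of the 21585 genes tested, 26.0% higher and 26.9% lower. The log2 fold change of ABCC4 was higher by 1.49 on MUC1 than on MYC silencing (95% interval 1.30 to 1.67, edgeR adjusted p = 1.65e-10). ABCC1 differed by 0.83 (95% interval 0.59 to 1.07) and ABCC5 by 0.77 (95% interval 0.59 to 0.95), and ABCC2 differed by 0.60 (95% interval 0.30 to 0.90). For ABCC1 and ABCC4 this means a larger fall on MYC silencing, and for ABCC2 a larger rise on MUC1 silencing. ABCC5 rose on MUC1 silencing and did not pass the test on MYC silencing. ABCC3 rose on both, and its difference of -0.12 (95% interval -0.41 to 0.16, edgeR adjusted p = 0.491) did not pass the test.

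The difference between GO-203 and MUC1 silencing was tested in the same way, across mammospheres without and with a tet-shRNA construct. The agent and the control differ as well, GO-203 against no named vehicle and DOX against DMSO. These and the way of targeting MUC1 cannot be told apart. The difference passed for 3 of the 5 transporters, all lower with GO-203, beside 44.9% of the 20829 genes tested, 24.1% higher and 20.8% lower. ABCC3 was lower by 1.59 with GO-203 (log2 difference -1.59, 95% interval -1.80 to -1.38), ABCC5 differed by -0.83 (95% interval -0.99 to -0.66) and ABCC2 by -0.76 (95% interval -1.05 to -0.48). In each of these the rise on MUC1 silencing was larger than the change with GO-203. ABCC1, which fell under both, differed by 0.10 (95% interval -0.08 to 0.29, edgeR adjusted p = 0.415). ABCC4 differed by 0.15 (95% interval -0.0012 to 0.30, edgeR adjusted p = 0.112), and this passed the test without 3D replicate 3 (adjusted p = 0.0889), without GO-203 replicate 2 (0.0407) or without vehicle-treated tet-MUC1shRNA replicate 1 (0.0774). With library size alone ABCC1 and ABCC4 changed sign here, to -0.06 and -0.01, without passing the test.

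**Figure D4:**
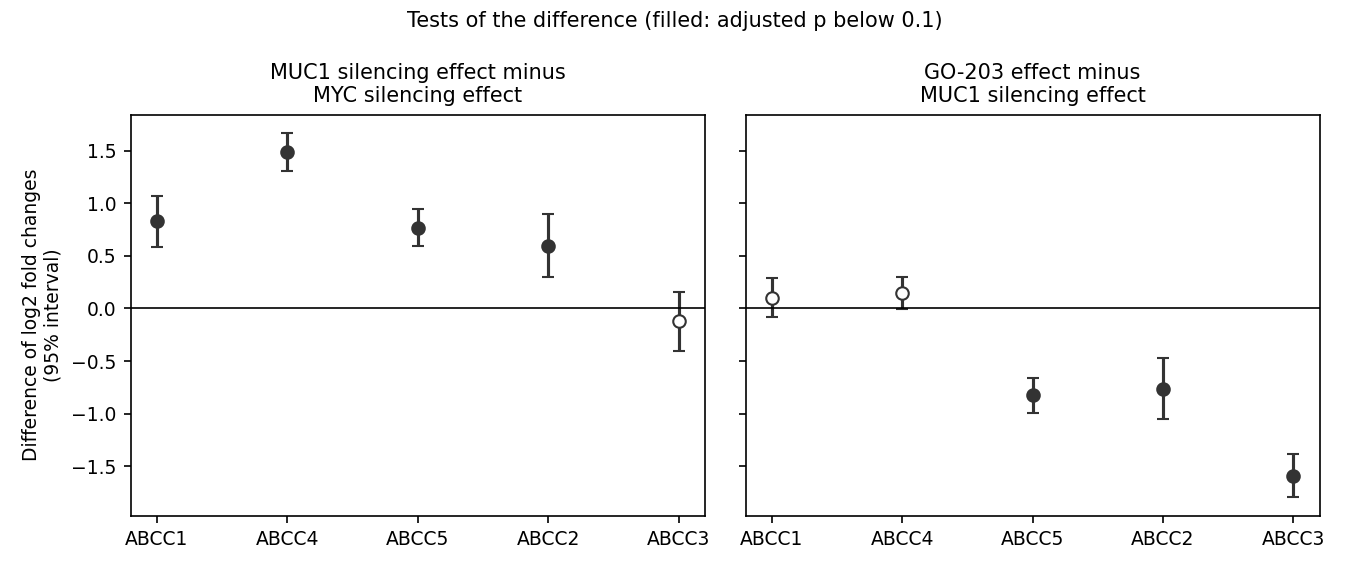
Differences between 2 effects on the log2 scale (vertical axis) for 5 transporters (horizontal axis), with 95% intervals from fits on 12 libraries. Points above 0 in the left panel are higher on MUC1 than on MYC silencing, and ABCC3 is the only open point there. Points below 0 in the right panel are lower with GO-203 than on MUC1 silencing.

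Across the 21 libraries, log2(CPM + 1) of ABCC1 and ABCC4 moved together (Pearson's r = 0.915, Spearman's rho = 0.716). ABCC3 ran opposite to ABCC1 (r = -0.666, rho = -0.829) and ABCC4 (r = -0.662, rho = -0.852). ABCC2 and ABCC5 had an r of 0.827 but a rho of 0.435, and ABCC3 had an r of 0.693 with ABCC5 and 0.664 with ABCC2. Over the 18 libraries without the DOX-treated tet-MUC1shRNA group, r was 0.227 for ABCC2 and ABCC5 (rho 0.108), 0.294 for ABCC3 and ABCC5 and 0.233 for ABCC3 and ABCC2. For ABCC1 and ABCC4 r was 0.914 and rho 0.554 in these 18, and ABCC3 had an r of -0.71 with ABCC1 and -0.736 with ABCC4. The 18 still hold the DOX-treated tet-MYCshRNA group, the lowest for ABCC1 and ABCC4, with means of 21.4 and 49.6 CPM. Correlations without that group were not computed, so how far r rests on it is not known. These values describe 21 libraries that fall into 7 groups and share their scaling. Among 12305 genes with a mean of at least 100 counts, those most like ABCC1 by r were LMNB1 (0.974), CDC42EP1 (0.962) and CDK5R1 (0.962). Those most like ABCC4 were HNRNPR (0.976), NAA15 (0.976) and ABCE1 (0.972), the last an ABC protein with no membrane domain that acts in ribosome recycling. For ABCC5 they were AREL1 (0.977), FLAD1 (0.973) and INHBA (0.97), for ABCC2 PLA2G12A (0.964), EPG5 (0.952) and PDE7B-AS1 (0.952), and for ABCC3 AKAP13 (0.97), the gene ENSG00000284377 without a symbol (0.964) and SYP (0.958).

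The other ABC genes were a list of 36, mostly lipid, peptide and organelle transporters, and 23 to 25 of them were tested. In 3D vs. 2D cells 11 rose and 5 fell (69.6% of those tested, beside 63.7% of all genes), and on MUC1 silencing 12 rose and 7 fell (76.0% beside 62.2%). With GO-203 3 rose and 5 fell (32.0% beside 24.1%), and on MYC silencing 11 rose and 5 fell (66.7% beside 58.5%). With library size alone the counts were 11 and 6 in 3D cells and 13 and 4 on MUC1 silencing, and with GO-203 and on MYC silencing no count of this or a later list moved by more than 1. The median log2 fold change of the list was 0.09, 0.39, 0.05 and 0.19 in this order, beside -0.01, 0.02, 0.02 and 0.01 over all genes. For each gene named in this list and those after it, every comparison in which it passed the test is given.

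ABCA5, ABCA6, ABCA8, ABCA9 and ABCA10 form a cluster of putative lipid transporters. ABCA6 was at 0.326 ± 0.126 CPM (SD, n = 3) in 2D and 83.1 ± 4.99 CPM in 3D cells (log2 fold change 7.99), fell on MUC1 silencing (-1.62) and with GO-203 (-0.41), and rose on MYC silencing (0.35). ABCA8 fell from 6.87 ± 1.8 to 0.0801 ± 0.0501 CPM in 3D cells. ABCA10 rose in 3D cells (2.02) and fell in the other 3 comparisons (-0.83 on MUC1 silencing, -1.02 with GO-203 and -1.36 on MYC silencing). ABCA5 rose in all 4 (0.73 in 3D cells, 0.82 on MUC1 silencing, 0.82 with GO-203 and 1.94 on MYC silencing), and ABCA9 rose in 3D cells (2.28), on MUC1 silencing (0.50) and on MYC silencing (1.90). Outside the cluster, ABCD2 rose on MUC1 silencing (1.81), with GO-203 (0.73) and on MYC silencing (0.99), and in 3D vs. 2D cells it rose from 0 in every 2D library to 1.89 ± 0.432 CPM (SD, n = 3). ABCA7 fell in 3D cells (-0.90) and rose on MUC1 silencing (2.26) and MYC silencing (1.78). ABCC9, the regulatory subunit of a potassium channel, rose on MUC1 silencing (2.21) and fell on MYC silencing (-0.45). The ABCA genes of the cluster are close copies, and how reads that map to several genes were counted is not given in the sources used here.

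Enzymes of glutathione synthesis and conjugation make the conjugates that ABCC proteins carry, and 14 to 17 of 21 were tested. They gave 7 rises and 4 falls in 3D cells (78.6% of those tested, beside 63.7% of all genes) and 3 and 8 on MUC1 silencing (68.8% beside 62.2%). They gave 1 and 3 with GO-203 (26.7% beside 24.1%) and 8 and 3 on MYC silencing (64.7% beside 58.5%). With library size alone the counts were 7 and 6 in 3D cells and 4 and 5 on MUC1 silencing. GCLC, the catalytic subunit of the rate-limiting step of glutathione synthesis, rose on MUC1 silencing (log2 fold change 0.65) and MYC silencing (0.67), and it was at -0.13 in 3D cells, a call that missed the threshold with RLE factors at nearly the same value (-0.13, edgeR adjusted p = 0.115). GSR, which regenerates reduced glutathione, rose in 3D cells (0.41) and fell on MUC1 silencing (-0.64), with GO-203 (-0.25) and on MYC silencing (-0.57). GSTP1, the main transferase of many tumor cells, had the same directions (0.22, -0.59, -0.25 and -0.47), and so had GSTO1 (0.75, -0.21, -0.21 and -0.32), whose call on MUC1 silencing was lost with library size alone, at -0.04. GSTA4 fell in 3D cells (-1.78), and GSTO2 rose on MUC1 silencing (2.18). GSTK1 rose in 3D cells (0.36) and on MYC silencing (0.74), and GSTZ1 fell in 3D cells (-0.34) and rose with GO-203 (0.47) and on MYC silencing (0.54). Both also fell on MUC1 silencing (-0.28 and -0.38), calls that were lost with library size alone, at -0.11 and -0.21. GSTM3 rose in 3D cells (0.53) and on MYC silencing (0.43) and fell on MUC1 silencing (-0.36), and GSTM4 rose on MYC silencing (1.06), though the GSTM genes are near copies whose reads may be split. With library size alone the fall of GSTM3 on MUC1 silencing was -0.195 (edgeR adjusted p = 0.0626).

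Of 21 transcription regulators known to act on ABC transporter genes, not all of them on the 7 described here, 17 or 18 were tested. They gave 11 rises and 2 falls in 3D cells (76.5% of those tested, beside 63.7% of all genes) and 7 and 9 on MUC1 silencing (88.9% beside 62.2%). They gave 5 and 5 with GO-203 (58.8% beside 24.1%) and 13 and 2 on MYC silencing (83.3% beside 58.5%). With library size alone the counts were 10 and 4 in 3D cells and 7 and 6 on MUC1 silencing. MYC is itself one of the list, and its changes are given above with those of MUC1. The median log2 fold change of the list was 0.47 in 3D cells and 0.58 on MYC silencing, and on MUC1 silencing it was -0.15, or 0.02 with library size alone.

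FOXO1 rose from 0.909 ± 0.148 to 113 ± 7.27 CPM (SD, n = 3) in 3D cells, and also on MUC1 silencing (log2 fold change 0.40), with GO-203 (0.63) and on MYC silencing (2.22). PPARG rose from 12.6 ± 0.779 to 407 ± 13.1 CPM in 3D cells and on MYC silencing (0.97), and fell on MUC1 silencing (-0.86). AHR, the aryl hydrocarbon receptor that binds the xenobiotic element, fell in 3D cells (-0.65) and rose on MUC1 silencing (0.66), with GO-203 (0.53) and on MYC silencing (1.46). EPAS1 (HIF-2α) rose in 3D cells (3.18), on MUC1 silencing (0.29) and on MYC silencing (0.91), and fell with GO-203 (-0.54). NR1H3, a sterol receptor, rose in 3D cells (3.84) and on MYC silencing (1.24). RXRA, the partner of many nuclear receptors, fell on MUC1 silencing (-1.63) and with GO-203 (-0.50) and rose on MYC silencing (1.01). PPARA likewise fell on MUC1 silencing (-1.13) and with GO-203 (-0.38) and rose on MYC silencing (0.48), and it rose in 3D cells (1.03). NR1I3 rose from 1.16 to 3.06 CPM on MUC1 silencing, and its call in 3D cells (0.79) missed the threshold with library size alone, at 0.73 (edgeR adjusted p = 0.116).

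The 10 membrane anchors and trafficking partners were all tested. They gave 4 rises and 3 falls in 3D cells (70.0%, beside 63.7% of all genes) and 3 and 7 on MUC1 silencing (all 10, beside 62.2%). They gave 2 and 3 with GO-203 (5 of 10, beside 24.1%) and 3 and 2 on MYC silencing (5 of 10, beside 58.5%), and with library size alone 3 and 6 on MUC1 silencing. EZR (ezrin), which links transporters to the cortical actin, rose on MUC1 silencing (log2 fold change 1.02) and fell on MYC silencing (-0.84) and with GO-203 (-0.33). MSN (moesin), a relative of EZR, fell in 3D cells (-1.10), on MUC1 silencing (-0.51) and on MYC silencing (-0.15). NHERF1, a scaffold that binds the tails of ABC proteins, rose in 3D cells (1.17) and fell on MUC1 silencing (-0.35) and with GO-203 (-0.19), and RAB4A had the same directions (0.33, -0.30 and -0.21). PIM1, a kinase, rose in 3D cells (1.37), with GO-203 (0.32) and on MYC silencing (0.50) and fell on MUC1 silencing (-0.57). CAV1 rose in 3D cells (0.82) and on MYC silencing (0.59) and fell on MUC1 silencing (-0.41). With library size alone these falls on MUC1 silencing were smaller, with the calls kept. They were -0.18 for NHERF1, -0.14 for RAB4A, -0.25 for CAV1, -0.35 for MSN and -0.41 for PIM1, while EZR was at 1.19.

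Other resistance proteins and the enzymes of drug metabolism were smaller groups. Of 6 resistance proteins, 2 rose and 1 fell of 5 tested in 3D cells (beside 63.7% of all genes), and 4 of 6 rose on MUC1 silencing (66.7% beside 62.2%). With GO-203 1 of 5 fell (beside 24.1%), and on MYC silencing 4 rose and 2 fell (all 6, beside 58.5%). With library size alone 5 of 6 rose on MUC1 silencing. MVP, the major vault protein, rose in 3D cells (log2 fold change 0.48), on MUC1 silencing (0.39) and on MYC silencing (0.87), and SLC47A1, an extrusion carrier for cations, rose on MYC silencing (2.33). PARP4, another vault protein, rose in 3D cells (1.19) and on MUC1 silencing (0.20) and fell with GO-203 (-0.47) and on MYC silencing (-0.16). TEP1 fell in 3D cells (-0.44) and rose on MUC1 silencing (0.89) and MYC silencing (1.04).

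Of 16 enzymes of drug metabolism, 6 or 7 were tested, with 1 rise and 4 falls in 3D cells (83.3%, beside 63.7% of all genes) and 4 and 3 on MUC1 silencing (all 7, beside 62.2%). There were 2 and 1 with GO-203 (42.9% beside 24.1%) and 3 and 1 on MYC silencing (57.1% beside 58.5%). With library size alone the counts were 1 and 5 in 3D cells and 4 and 0 on MUC1 silencing. CYP1B1, a target gene of AHR, fell in 3D cells (log2 fold change -1.64) and rose on MUC1 silencing (0.79), with GO-203 (0.79) and on MYC silencing (1.76). NQO1, a quinone reductase, rose in 3D cells (0.98) and on MYC silencing (1.59). EPHX1, an epoxide hydrolase, rose from 22.1 ± 0.707 to 239 ± 17.5 CPM (SD, n = 3) on MYC silencing and also with GO-203 (0.73), and fell in 3D cells (-0.60). NQO1 and EPHX1 fell on MUC1 silencing (-0.17 and -0.22), calls that were lost with library size alone (edgeR adjusted p = 0.956 and 0.458).

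Of 15 solute carriers of drug uptake, 9 or 10 were tested. They gave 5 rises and 2 falls in 3D cells (70.0%, beside 63.7% of all genes) and 6 and 4 on MUC1 silencing (all 10, beside 62.2%). They gave 2 and 2 with GO-203 (44.4% beside 24.1%) and 4 and 5 on MYC silencing (90.0% beside 58.5%), and with library size alone 6 and 3 on MUC1 silencing. SLCO4A1, an organic anion carrier, rose from 8.06 ± 1.45 to 309 ± 17.3 CPM (SD, n = 3) in 3D cells, and fell on MUC1 silencing (log2 fold change -1.30), with GO-203 (-0.51) and on MYC silencing (-0.57). SLCO2A1, a prostaglandin carrier, rose in 3D cells (2.58), with GO-203 (0.37) and on MYC silencing (1.74), and its call on MUC1 silencing (-0.25) was lost with library size alone, at -0.08. SLC22A5, the carnitine transporter, fell in 3D cells (-1.03) and rose on MUC1 silencing (2.60), with GO-203 (0.86) and on MYC silencing (0.52). SLC31A1, the copper carrier that also admits platinum drugs, fell on MUC1 silencing (-0.93). SLC29A1, the nucleoside carrier that admits gemcitabine, fell from 113 ± 8.6 to 26.2 ± 4.33 CPM on MYC silencing and also on MUC1 silencing (-0.53), and rose in 3D cells (0.70). SLC29A2, a related carrier, rose in 3D cells (2.57) and on MUC1 silencing (0.23) and fell on MYC silencing (-1.47). SLC19A1, the carrier of reduced folate and methotrexate, rose on MUC1 silencing (0.47) and fell with GO-203 (-0.47) and on MYC silencing (-1.54).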

How the data were processed

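Libraries of mRNA from 21 cultures were strand-specific and read from both ends. The authors deposited raw counts per gene, from reads aligned to GRCh38 with STAR and counted with featureCounts. STAR is version 2.7.3a in the submitters' processing notes. The annotation release, strand setting and treatment of multi-mapping reads are not given in the sources used here. Genes with no value in a block of libraries were read as 0.

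For each comparison only its 6 libraries entered the model in edgeR 4.0.16 under R 4.3.3 (filterByExpr, TMM, quasi-likelihood test, Benjamini-Hochberg adjustment over all genes tested, adjusted p below 0.1), and interactions on 12 libraries. CPM were scaled over all 21 libraries, so their ratios can differ slightly from fitted changes. Levels per kb use the exon union of GENCODE 44. The members and lists were chosen with earlier results of these data known. The text names all members, MUC1 and MYC, up to 3 genes of each list and comparison (largest absolute log2 fold change among genes past the threshold, groups not overlapping, mean count at least 100), and 3 genes most like each member, and some genes that this rule names are not reported here. Gene positions matched by identical identifiers for all 7. Alternatives were DESeq2 1.42.0, RLE factors, scaling by library size alone or without the mtDNA genes, other filters and thresholds, 1 fit of all libraries, the replicate block and leaving out each library. Counts divided by 2, canonical transcript lengths and a fold threshold in place of a log2 one were added after seeing the data. Fits were tested on simulated data.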

Additional observations from a re-analysis of the deposited data

Results flagged for a closer look

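For 4 transporters the effect of MUC1 silencing differed from that of MYC silencing by the interaction test over 12 libraries. The difference of the log2 fold changes was 0.83 for ABCC1, 1.49 for ABCC4, 0.77 for ABCC5 and 0.60 for ABCC2, with edgeR adjusted p of 9.2e-06, 1.65e-10, 4.92e-07 and 0.0021. Leaving out each of the 12 libraries kept all 4 past the threshold, and the lines differ in passage, so that passage and target cannot be told apart.

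For 3 transporters the effect of GO-203 differed from that of MUC1 silencing by the same kind of test. The construct, the agent and the control differ too, and these cannot be told apart from the way of targeting MUC1. The difference was -0.83 for ABCC5, -0.76 for ABCC2 and -1.59 for ABCC3, with edgeR adjusted p of 4.16e-09, 7.7e-05 and 1.17e-12. MUC1 itself was at 255 ± 10.2 CPM (SD, n = 3) with GO-203 and 207 ± 21.8 CPM in 3D cells, and at 21.4 ± 1.81 CPM on MUC1 silencing. The part of this in the difference was not tested.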

How the results depend on the processing

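With the study's second threshold added as an absolute log2 fold change above 1.5, the genes called were 3107 in place of 12223 in 3D vs. 2D cells, 1695 in place of 11962 on MUC1 silencing, 140 in place of 4452 with GO-203 and 2085 in place of 11665 on MYC silencing, and the transporters called were 1, 1, 0 and 2, since this rule by its construction keeps only larger changes. With that threshold as a fold above 1.5, chosen after seeing the data, the genes were 7489, 6185, 1041 and 7514 and the transporters 1, 3, 0 and 3. Under the other alternatives with all libraries, transporter calls kept their side of the threshold, except that ABCC4 on MUC1 silencing was lost and turned to 0.0149 with library size alone (adjusted p = 0.801). That setting also turned 3 values that had not passed the test, ABCC3 between MUC1 and MYC silencing to 0.0844, and ABCC1 and ABCC4 between GO-203 and MUC1 silencing to -0.055 and -0.0069. It raised the higher share of calls on MUC1 silencing from 49.26% to 64.39%, moved that share from 49.14% to 61.2% between MUC1 and MYC silencing, and from 53.58% to 38.42% between GO-203 and MUC1 silencing. ABCC4 with GO-203, at 0.00, turned to -0.0097 with DESeq2, -0.0011 without mtDNA genes, -0.0044 with RLE factors, -0.0086 with a filter of 1 count and -0.0293 in 1 fit of all 21 libraries.

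When libraries were left out one at a time, the calls were 11743 to 12207 genes in 3D vs. 2D cells, 11233 to 11665 on MUC1 silencing, 3228 to 4144 with GO-203 and 10036 to 12353 on MYC silencing. The transporters called were 2 to 2, 5 to 5, 1 to 2 and 4 to 4. They were 4 to 4 between MUC1 and MYC silencing and 3 to 4 between GO-203 and MUC1 silencing. In 3D vs. 2D cells ABCC1 ran from -0.0339 to 0.0344 and ABCC4 from -0.0784 to 0.0444, and with GO-203 ABCC4 ran from -0.0299 to 0.0407, without passing the test.

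The replicate number was not used to pair the samples in the main fits. Correlations of same-numbered deviations were not above 0.1 for every number in any comparison, with means of -0.0871, 0.0558, 0.202 and -0.295. With GO-203 they were 0.397, -0.0322 and 0.240, which does not settle whether samples were paired there. With the replicate block the genes called were 11802, 11922, 4973 and 10478, and it changed no transporter's call. ABCB1 and ABCG2 were kept from the main test by the filter on low counts, and with a filter of 1 count or with DESeq2 neither passed the threshold in a comparison that gave an adjusted p.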

Other observations

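Most low counts in the table were even. Of the counts from 1 to 20, 67.0% to 71.1% were even in each library, against 49.5% to 52.1% of those from 1000 to 5000, and all 26 values above 0 of ABCB1 and ABCG2 were even. With counts divided by 2, a setting chosen after seeing the data, the number of transporters called stayed at 2 in 3D vs. 2D cells, 5 on MUC1 silencing, 2 with GO-203 and 4 on MYC silencing.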
